A study of Neurospora crassa OR74A with 15 samples.

Results

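A set of 5 ergosterol synthesis genes of the filamentous fungus Neurospora crassa, out of 9733 loci measured, was followed across 6 carbon conditions: erg-4 (NCU03006), NCU02624, NCU06402, erg-3 (NCU08762) and NCU00712. They were picked by identifier as ergosterol pathway genes after the high erg-4 level on orange peel powder had been seen, so every value that sets orange peel powder against another condition is a description for these 5 genes and was not tested. All 5 passed the filter on low values, a mean of at least 1 FPKM (a transcript level from sequenced fragments, scaled for transcript length and library depth). To ask how far the orange peel powder level of erg-4 was shared, 10 further sterol pathway identifiers were read beside them: erg-1 (NCU04156), fpp (NCU01175), NCU01333, NCU05278, NCU01119, NCU06054, NCU08280, NCU06207, NCU04983 and NCU03922. Of the 15 identifiers, erg-1, erg-3, erg-4 and fpp carry a gene symbol in the gene table used here. The other identifiers were listed from general knowledge of the pathway and could not be checked against an annotation, so no enzyme is assigned to them.

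Ergosterol is the main sterol of fungal membranes, where it takes the place that cholesterol has in animal cells. Isoprenoid units made in the mevalonate pathway are joined to farnesyl diphosphate and on to squalene, which is oxidised and folded into a ring, and a chain of demethylases, reductases, isomerases and desaturases then turns the ring into ergosterol. Several of these steps consume oxygen, and the pathway is the target of several classes of antifungal drugs.

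Messenger RNA was sequenced from mycelia of the wild-type strain FGSC 2489 in 15 libraries. Cultures were pregrown for 16 h in Vogel's salts with 2% sucrose, washed, and held for 4 h on a new carbon source. The new media held 1% orange peel powder (2 libraries), 1% pectin (3), 2% xylan (1), 2% Avicel, a microcrystalline cellulose (3), no carbon source (3) or 2% sucrose (3). The orange peel powder, pectin and xylan libraries were labelled as made for the study, and the Avicel, no carbon and sucrose libraries as taken from an earlier publication, so that in a comparison across these sources the carbon source and the source of the libraries cannot be told apart. The labels name 1 strain and do not say whether replicates were separate cultures, so p-values measure the spread between these libraries, which may be technical. Between 718 and 2341 loci were listed at 0 in a library. Of the 9 earlier libraries, whose tables allow an estimate of depth, Avicel replicate 1 (60.4 megabases of mapped sequence) and sucrose replicate 1 (61.9) were the shallowest, and the others held 209 to 1052. Depth is unknown for the other 6. Conidia are the spores that starved mycelia can form, and the summed level of 7 conidiation genes (eas, con-6, con-8, con-10, con-13, ccg-1 and fl) was 15168 to 25759 FPKM on orange peel powder, 16031 to 41881 on pectin, 26093 on xylan, 92981 to 158459 on Avicel, 345572 to 384162 without carbon and 528 to 1776 on sucrose. The gene ccg-1 had the largest mean of the 7 in each condition, with 18593 FPKM on orange peel powder, 243038 without carbon and 1022 on sucrose. The gene fl did not follow the sum throughout. Its means were 34.5 FPKM on orange peel powder, 41.3 on pectin, 78.9 on Avicel, 172 without carbon and 33.9 on sucrose. In bulk RNA, fewer cells of a type and less RNA per cell cannot be told apart.

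On orange peel powder erg-4 reached 6371 and 5906 FPKM, against 900.3, 672 and 730.1 FPKM on pectin and 844 FPKM in the xylan library. Its level was 349, 235 and 217 FPKM on Avicel, 211, 226 and 134 FPKM without carbon, and 1719, 1546 and 1505 FPKM on sucrose. Both orange peel powder libraries stood above all 13 others, with sucrose next, the xylan library and pectin overlapping in the middle, and Avicel and no carbon overlapping at the bottom. The authors' bounds for the single xylan value were 786 to 903 FPKM. By mean FPKM erg-4 ranked 113 of 9733 loci on orange peel powder, 916 on pectin, 753 on xylan, 2257 on Avicel, 3027 without carbon and 496 on sucrose. The gene lies on contig 10.1, positions 8462801 to 8464460, in the deposited coordinates; the sources used here do not give their genome build.

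The second gene, NCU02624 (contig 10.1, 2957212 to 2959378), had 4182 and 4819 FPKM on orange peel powder, against 709.7, 907 and 937 FPKM on pectin and 652 FPKM on xylan. It had 1434, 230.3 and 203 FPKM on Avicel, 276, 364 and 157 FPKM without carbon, and 2237, 1451 and 1734 FPKM on sucrose. The order of the conditions was that of erg-4 at the top, with orange peel powder above sucrose and sucrose above pectin without overlap. Avicel replicate 1 was 7.06 times the lowest Avicel library and lay above the xylan library, while Avicel replicates 2 and 3 lay below it and within the range of the no carbon group.

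NCU06402 (contig 10.4, 2631388 to 2633229) had 2928 and 3647 FPKM on orange peel powder, against 1679, 2687 and 2274 FPKM on pectin and 1314 FPKM on xylan. It had 3297, 718 and 477 FPKM on Avicel, 617, 838 and 402 FPKM without carbon, and 4365, 2593 and 1824 FPKM on sucrose. Orange peel powder and sucrose overlapped, as did sucrose and pectin, pectin and Avicel, and Avicel and xylan. Only the step between xylan and no carbon, the lowest pair of neighbours, showed no overlap. The locus has 2 transcripts, and the minor one held 0.358% to 4.82% of its summed FPKM in the 9 libraries with transcript values.

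The gene erg-3, which encodes a sterol reductase, had 962 and 996 FPKM on orange peel powder, against 733, 732 and 711 FPKM on pectin and 669.6 FPKM on xylan. Its level was 568, 948 and 971 FPKM on Avicel, 678, 534 and 606 FPKM without carbon, and 786, 1036 and 938 FPKM on sucrose. It varied least of the 5 genes: the highest condition mean, on orange peel powder, was 979 FPKM and the lowest, without carbon, 606 FPKM. All neighbouring conditions in its order overlapped except pectin and the xylan library. The gene lies on contig 10.3 at 5237088 to 5238885.

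NCU00712 (contig 10.1, 7465598 to 7469607) had 662 and 561 FPKM on orange peel powder, against 389, 330.2 and 403 FPKM on pectin and 749.8 FPKM on xylan. It had 300.0, 289 and 306 FPKM on Avicel, 323, 227 and 405 FPKM without carbon, and 888, 848 and 1082 FPKM on sucrose. In contrast to the other 4 genes its highest mean was on sucrose, with the xylan library next and orange peel powder after it, none of these overlapping. At the bottom, no carbon overlapped with both pectin and Avicel, while the 3 pectin libraries lay above the 3 Avicel libraries.

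**Figure D1:**
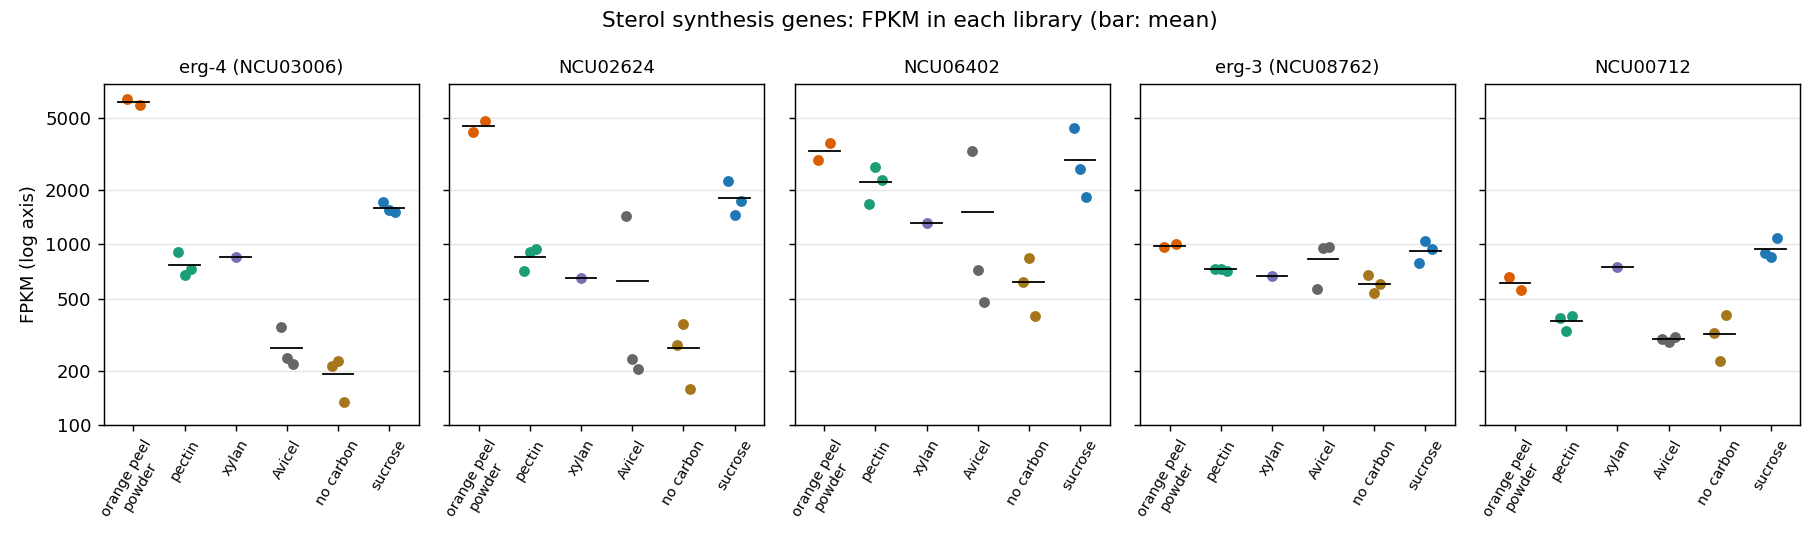
FPKM of the 5 genes in each library, on a log axis, by carbon condition; each point is 1 library and each bar the mean of a condition, which for xylan is its 1 library. The 2 orange peel powder points of erg-4, at 6371 and 5906 FPKM, and of NCU02624, at 4182 and 4819 FPKM, lie above all other libraries of these genes, while those of NCU06402, erg-3 and NCU00712 do not.

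Set against pectin, the medium prepared at the same concentration in the same study, orange peel powder gave a graded picture within the set. The mean of erg-4 was 6139 ± 329 FPKM on orange peel powder (SD, n = 2) and 768 ± 119 FPKM on pectin (SD, n = 3), a ratio of 8.0 with single libraries giving 6.56 to 9.48. For NCU02624 the means were 4500.4 ± 450.0 FPKM on orange peel powder and 851 ± 124 FPKM on pectin, a ratio of 5.29. The remaining members differed far less, with ratios of 1.63 for NCU00712, 1.49 for NCU06402 and 1.35 for erg-3. On the scale of log2(FPKM + 1) the differences were 3.01 (SE 0.25) for erg-4, 2.41 (SE 0.66) for NCU02624, 0.71 (SE 0.21) for NCU00712, 0.59 (SE 0.66) for NCU06402 and 0.43 (SE 0.22) for erg-3. Each SE draws on the spread in all replicated groups, not only the groups compared. In all 5 genes both orange peel powder libraries lay above all 3 pectin libraries, which was the case for 18.3% of the 8700 genes tested. Since the genes were chosen on this side of the data, that count is a description.

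The 10 further sterol genes, read from the test across all genes, gave 0 calls between orange peel powder and pectin. A call needed an adjusted p below 0.05 in limma (Benjamini-Hochberg, over all 8700 genes) and an absolute log2 difference of at least 1, and by this rule 0.149% of all genes were called higher and 0.161% lower. Only 27 genes in all were called, so a share near this background says little about the sterol genes. Their median log2 difference was 0.13, with 6 of 10 above 0 and a range of -0.20 to 1.14, while the median of all genes tested was -0.02. Both orange peel powder libraries lay above all pectin libraries in NCU05278, erg-1, NCU03922, NCU01333 and NCU04983, and the groups overlapped in the rest. Such a separation upwards was seen in 18.3% of all genes tested.

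NCU05278 was the 1 gene of the 10 with an unadjusted p below 0.05. It had 1653 and 1425 FPKM on orange peel powder, against 775, 622 and 697 FPKM on pectin, and the groups did not overlap. Its ratio of means was 2.20 and its log2 difference 1.14 (SE 0.28), with an adjusted p of 0.131 in limma over all genes. With only the 2 groups of the comparison in the limma fit the adjusted p was 0.0231. This difference was larger than those of 3 of the 5 chosen genes, NCU00712, NCU06402 and erg-3.

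Next in size, erg-1, which encodes a sterol isomerase, had 2230 and 1979 FPKM on orange peel powder, against 1105, 1401 and 1526 FPKM on pectin, a log2 difference of 0.66 (SE 0.41, limma adjusted p = 0.684). For fpp, the gene of farnesyl diphosphate synthase, the levels overlapped, at 1351 and 1474 FPKM on orange peel powder and 1707, 1354 and 1538 FPKM on pectin (log2 difference -0.11, adjusted p = 0.922). NCU06207 had the lowest difference of the 10, -0.20 (SE 0.87, adjusted p = 0.988). By the limma test, at this depth of replication, these differences could not be told from the spread between libraries. That spread was estimated over all replicated groups, not only the groups compared. For NCU06207 the largest deviation from a group mean was 2.35 on the log2 scale, in Avicel replicate 1, which is outside this comparison.

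**Figure D2:**
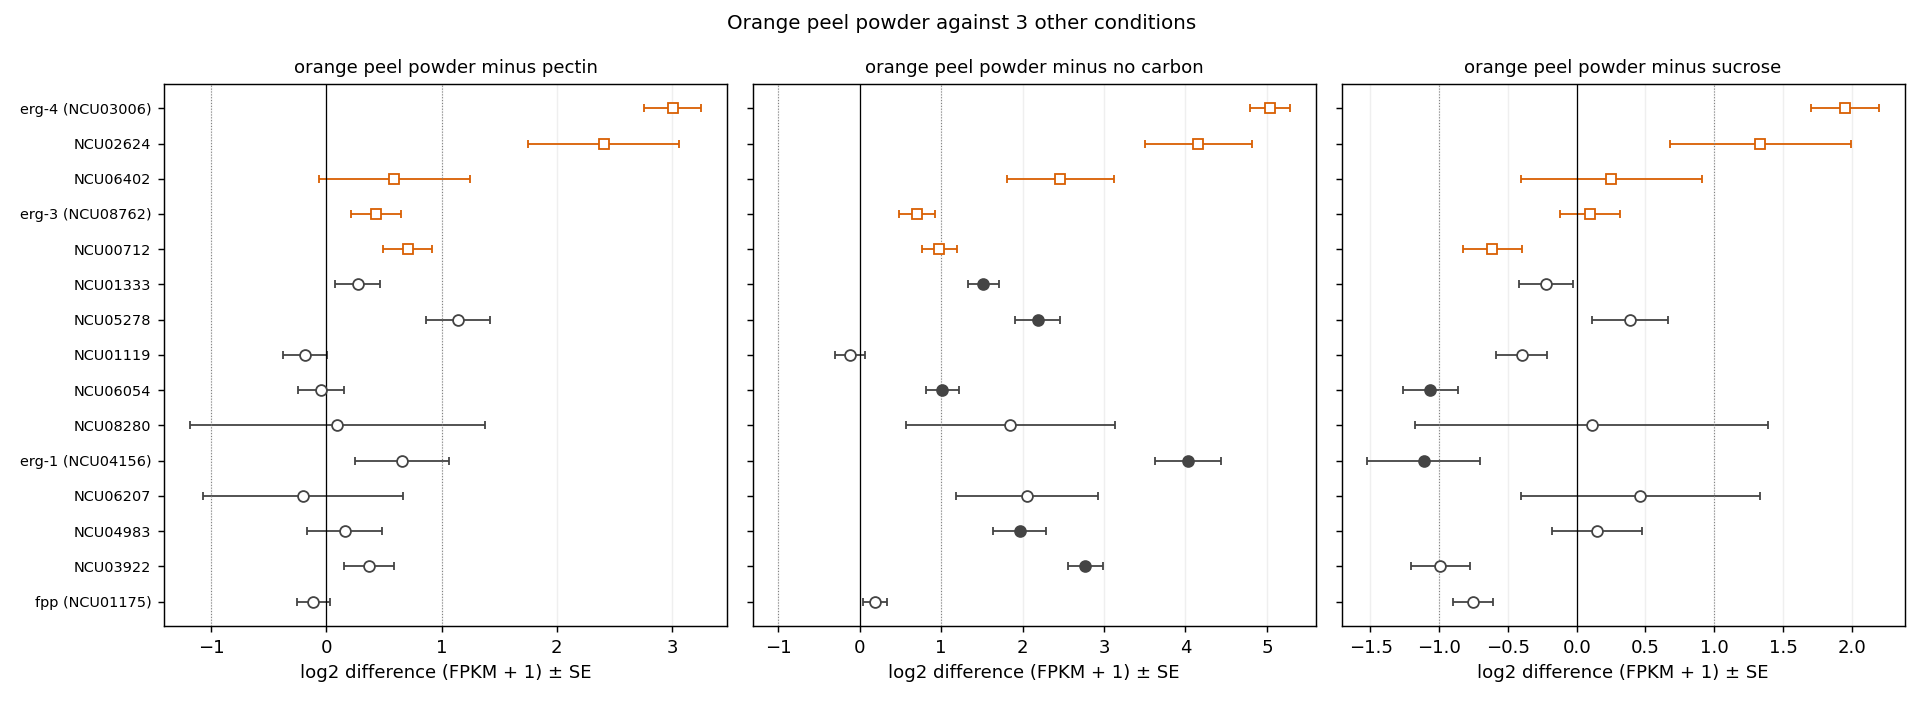
Differences in log2(FPKM + 1) of the 15 sterol genes, orange peel powder minus pectin, minus no carbon and minus sucrose, with bars of 1 SE from limma; open orange squares are the 5 chosen genes, not tested, and dark circles the 10 further genes, filled where called; dotted lines mark a difference of 1 in either direction. Against pectin erg-4 (3.01) and NCU02624 (2.41) stand apart and no dark circle is filled, while against no carbon 6 of 10 are filled.

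Across all 6 conditions erg-4 differed from the rest of the pathway in how far orange peel powder stood out. Both orange peel powder libraries lay above all 13 others in 2.68% of the 8700 genes tested, and in the sterol list this was so for erg-4, NCU02624 and NCU05278. For 4 genes of the 8700 (0.046%) both were at least 3 times every other library, and erg-4 was the only one of the 15 sterol genes among them. The factor of 3 was chosen after the values had been seen. The 5 genes were chosen with the orange peel powder level of erg-4 known. Their orange peel powder counts in this paragraph are therefore a description. Orange peel powder had the highest condition mean in 8.64% of genes, in 4 of the 5 chosen genes (erg-4, NCU02624, NCU06402 and erg-3) and in 2 of the 10 others (NCU05278 and NCU04983). Sucrose had it in 29% of genes, in NCU00712 and in 6 of the 10 others: NCU01333, NCU01119, NCU06054, erg-1, NCU03922 and fpp. The low end was more widely shared: no carbon had the lowest of the 6 condition means in 15.4% of genes, but in 4 of the 5 chosen genes and 9 of the 10 others, the exceptions being NCU00712 and NCU01119.

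**Figure D3:**
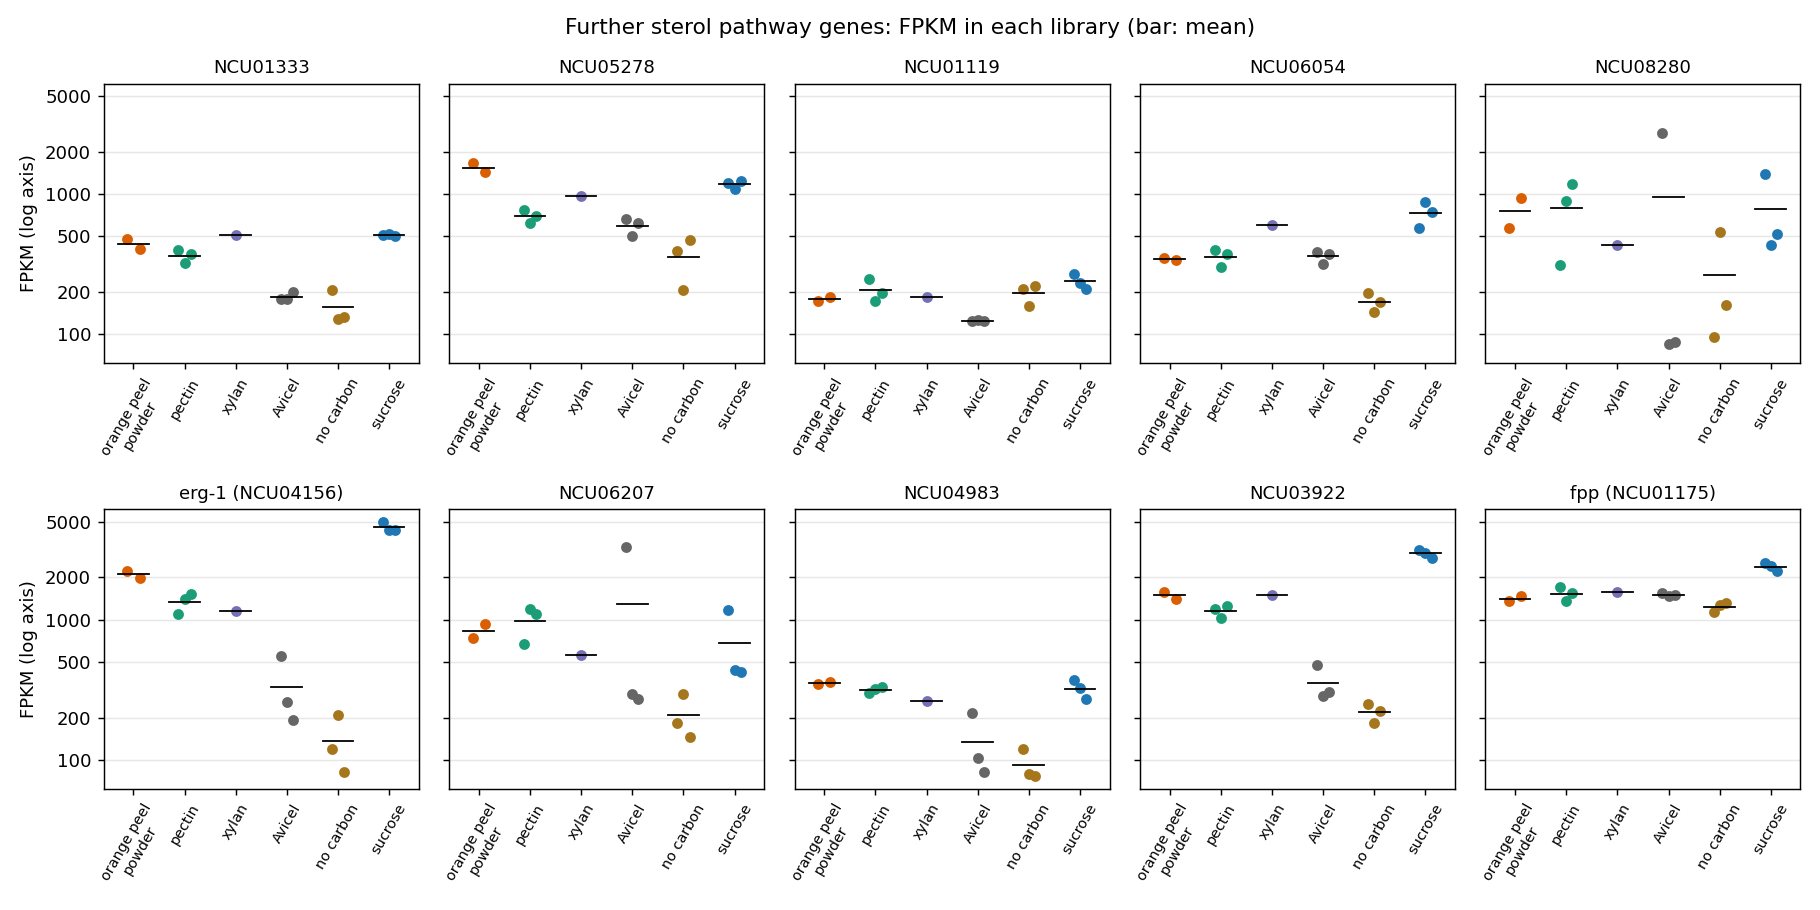
FPKM of the 10 further sterol genes in each library, on a log axis, by carbon condition; each point is 1 library and each bar the mean of a condition, which for xylan is its 1 library. The highest points of erg-1 and NCU03922 are on sucrose, up to 4954 and 3159 FPKM, and NCU05278 is highest on orange peel powder at 1653 and 1425 FPKM.

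Without a carbon source, most of the sterol genes were lower than on sucrose, a comparison that uses libraries of the earlier publication alone. Of the 5 chosen genes and the 10 others, 0 had a log2 difference above 0. Called lower were 4 of the 5 chosen genes and 6 of the 10 others, where 18% of all genes tested were. These 5 genes could be tested here because no orange peel powder library enters the difference, although the no carbon and sucrose libraries are also the controls of other comparisons. For erg-4 the mean was 190.5 ± 49.4 FPKM without carbon and 1590.0 ± 113 FPKM on sucrose (SD, n = 3 each), a log2 difference of -3.09 (SE 0.22, limma adjusted p = 1.74e-07). NCU02624 fell by 2.82 (SE 0.59, adjusted p = 0.00103), NCU06402 by 2.21 (SE 0.59, adjusted p = 0.00507) and NCU00712 by 1.59 (SE 0.19, adjusted p = 1.32e-05) on the log2 scale. In all 4 genes the 3 no carbon libraries lay below the 3 sucrose libraries, as in 27% of genes. The reductase gene erg-3 was also below sucrose in every library, but its log2 difference of -0.60 (adjusted p = 0.0161) did not reach the fold needed for a call.

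Among the 10 further genes the largest decrease was that of erg-1, which had 120.5, 209 and 82.3 FPKM without carbon, against 4954, 4363 and 4344 FPKM on sucrose (log2 difference -5.14, SE 0.37, limma adjusted p = 1.67e-07). NCU03922 fell by 3.76 (SE 0.19, adjusted p = 1.60e-08), and NCU06054, NCU04983, NCU05278 and NCU01333 fell by 2.08, 1.82, 1.80 and 1.74 on the log2 scale. The gene fpp fell short of the fold threshold, at -0.95 (adjusted p = 4.18e-05). NCU08280 (-1.74, adjusted p = 0.193), NCU06207 (-1.59, adjusted p = 0.0877) and NCU01119 (-0.28, adjusted p = 0.156) were not called. The median of the 5 chosen genes was -2.21 and that of the 10 others -1.77, while the median of all genes tested was 0.38. That general median moved to 0.62 under upper-quartile scaling and to -0.05 under quantile normalization, and the share of calls that were higher moved from 65.5% to 50.4% under quantile normalization, with no sterol call lost under either. The summed level of the conidiation genes was at its highest without carbon and its lowest on sucrose, which did not hold for each gene alone. The part of these genes in the differences was not tested.

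Much of the pathway was higher on pectin than without carbon, within the limit that the 2 groups come from different sources. Of the 5 chosen genes 3 were called higher on pectin than without carbon, and of the 10 others 7, where 10.4% of all genes tested were called higher. The mean of erg-4 was 768 ± 119 FPKM on pectin and 190.5 ± 49.4 FPKM without carbon (SD, n = 3 each), a log2 difference of 2.03 (SE 0.22, limma adjusted p = 4.69e-05). NCU06402 rose by 1.87 (SE 0.59, adjusted p = 0.0267) and NCU02624 by 1.75 (SE 0.59, adjusted p = 0.0362). The differences of erg-3 and NCU00712 were both 0.27 (adjusted p = 0.312 and 0.297), and NCU00712 overlapped between the groups.

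Of the further genes, erg-1 had 1105, 1401 and 1526 FPKM on pectin, against 120.5, 209 and 82.3 FPKM without carbon (log2 difference 3.37, SE 0.37, limma adjusted p = 4.66e-05). NCU03922 followed at 2.40 (SE 0.19, adjusted p = 4.12e-06), then NCU06207 at 2.25 (adjusted p = 0.0406), NCU04983 at 1.81, NCU01333 at 1.25, NCU06054 at 1.06 and NCU05278 at 1.04. NCU08280 (1.75, adjusted p = 0.254), fpp (0.30, adjusted p = 0.0915) and NCU01119 (0.06, adjusted p = 0.805) were not called. The median was 1.75 for the 5 chosen genes and 1.5 for the 10 others, against -0.12 for all genes tested.

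Several of these pectin calls were lost when 1 library was left out or the scaling was changed. NCU02624 was no longer called once pectin replicate 1, 2 or 3, or either of no carbon replicates 1 and 3, was left out (limma adjusted p = 0.0621, 0.0908, 0.0971, 0.0701 and 0.136), nor was NCU06207 without the same libraries (0.0574, 0.111, 0.105, 0.0951 and 0.122). For NCU06402 this held for pectin replicates 2 and 3 and for no carbon replicates 1 and 3 (0.0830, 0.0714, 0.0599 and 0.101). With 1 library left out, the log2 differences stayed at 1.41 to 2.02 for NCU02624, 2.03 to 2.53 for NCU06207 and 1.59 to 2.12 for NCU06402. Over all alternative settings, the lowest limma adjusted p of these genes was 0.000308, 8.48e-05 and 0.000396, in that order. NCU05278 and NCU06054 dropped under the fold threshold without pectin replicate 1 (0.97 for both) or no carbon replicate 2 (0.69 and 0.95), and NCU05278 also under upper-quartile scaling (0.98) and quantile normalization (0.93). In all, 10 sterol genes were called with every library and 6 without pectin replicate 1. Both erg-4 and erg-1 kept their calls in each of the 6 fits.

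Avicel against no carbon gave few calls, in the sterol list as among all genes, so their count says little about the sterol genes. None of the 5 chosen genes passed in limma, with 1 at an unadjusted p below 0.05, and 1 of the 10 others was called higher, where 4.03% of all genes tested were. The log2 difference was above 0 in 4 of the 5 chosen genes and 9 of the 10 others, and in 3155 of the 8700 genes tested. The mean of erg-4 was 267 ± 71.7 FPKM on Avicel and 190.5 ± 49.4 FPKM without carbon (SD, n = 3 each), a log2 difference of 0.49 (SE 0.22, adjusted p = 0.195), and the libraries overlapped. NCU06402 differed by 0.81 (SE 0.59), NCU02624 by 0.69 (SE 0.59), erg-3 by 0.42 (SE 0.20) and NCU00712 by -0.05 (SE 0.19). The values of NCU06402 and NCU02624 came from 1 library: without Avicel replicate 1 they were -0.02 and -0.21.

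The gene called on Avicel was NCU06054, at 360 ± 34.8 FPKM on Avicel and 171 ± 25.3 FPKM without carbon (log2 difference 1.07, SE 0.18, limma adjusted p = 0.00209). Without no carbon replicate 2 its log2 difference was 0.96, under the fold threshold. For erg-1, with 549, 259 and 193 FPKM on Avicel and 120.5, 209 and 82.3 FPKM without carbon, the adjusted p was 0.0548 (log2 difference 1.24, SE 0.37). NCU01119 (-0.64, adjusted p = 0.0328) and NCU03922 (0.67, adjusted p = 0.0491) passed on p but not on the fold. The gene erg-1 was called without Avicel replicate 3 (adjusted p = 0.0282) or no carbon replicate 2 (0.0170), and also under upper-quartile scaling (0.0472) and quantile normalization (0.0374), while NCU05278 was called without no carbon replicate 3 (log2 difference 1.05, adjusted p = 0.0269).

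**Figure D4:**
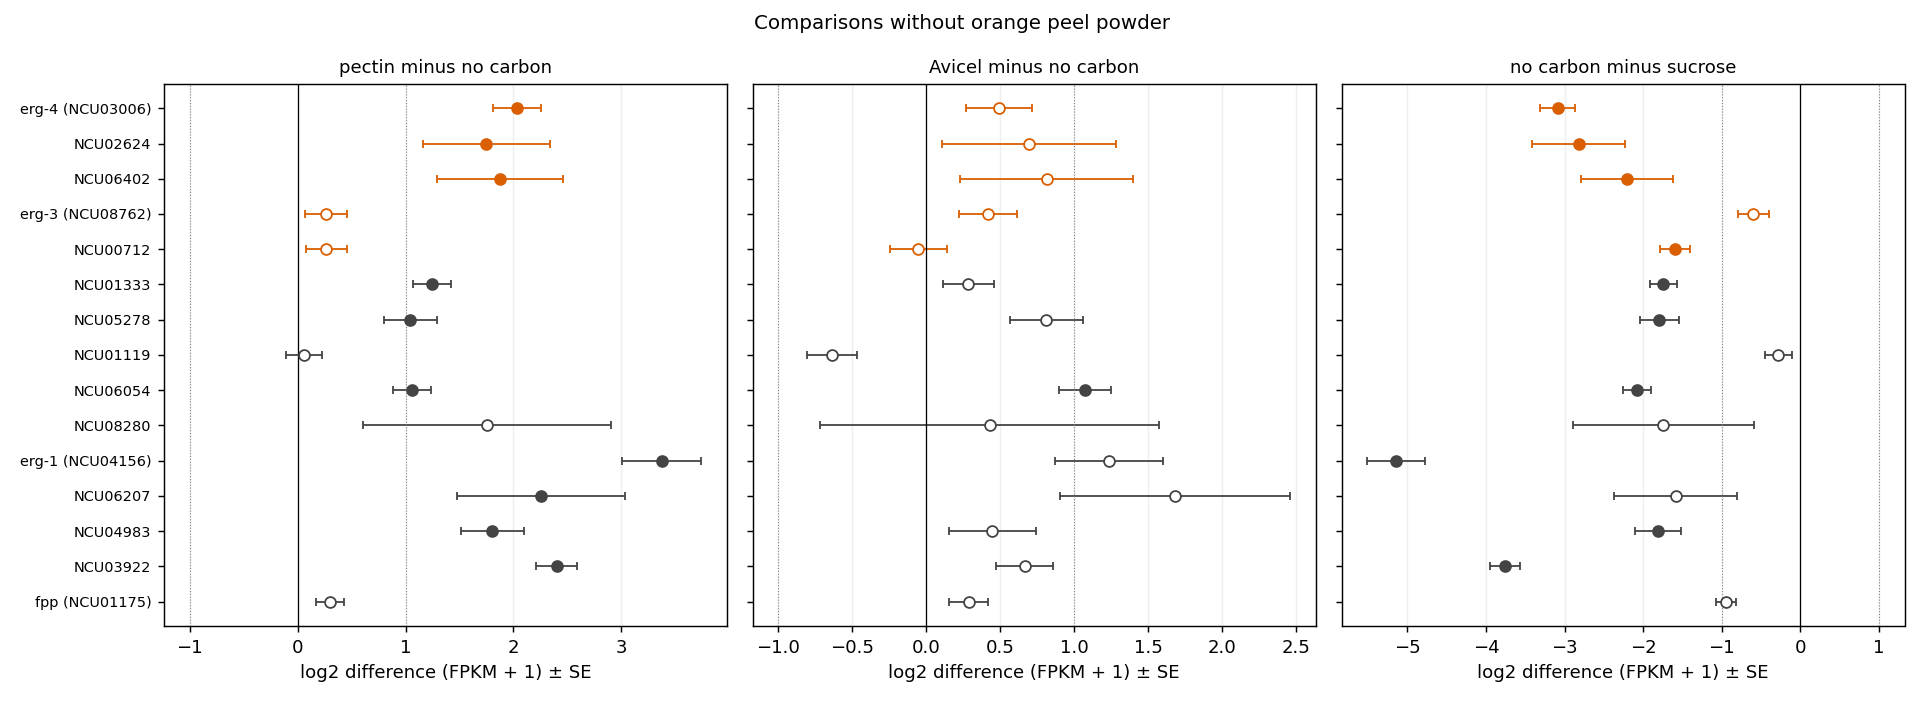
Differences in log2(FPKM + 1) of the 15 sterol genes, pectin minus no carbon, Avicel minus no carbon and no carbon minus sucrose, with bars of 1 SE from limma; orange symbols are the 5 chosen genes, dark ones the 10 further genes, filled symbols are called, and dotted lines mark a difference of 1 in either direction. On pectin 10 of the genes are called higher, on Avicel NCU06054 alone, and without carbon 10 are called lower than on sucrose, from NCU00712 at -1.59 to erg-1 at -5.14.

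Part of the pathway was higher on orange peel powder than without carbon, again with the sources of the libraries confounded with the media. In the 5 chosen genes, not tested here, the log2 differences were 5.04 for erg-4, 4.16 for NCU02624, 2.46 for NCU06402, 0.97 for NCU00712 and 0.70 for erg-3, and the mean of erg-4 was 32.2 times its level without carbon. Of the 10 others 6 were called higher, where 10.4% of all genes were. The isomerase gene erg-1 had a mean of 2104 ± 178 FPKM on orange peel powder (SD, n = 2) and 137 ± 65.0 FPKM without carbon (SD, n = 3), a log2 difference of 4.03 (SE 0.41, limma adjusted p = 4.22e-05). NCU03922 rose by 2.77 (adjusted p = 4.94e-06), NCU05278 by 2.19 (0.000186), NCU04983 by 1.96 (0.00116), NCU01333 by 1.52 (0.000193) and NCU06054 by 1.01 (0.00307).

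The last of these calls, NCU06054, was lost without orange peel powder replicate 1 (0.99) or no carbon replicate 2 (0.90), and also with a pseudocount of 5 (0.997) or upper-quartile scaling (0.97). NCU06207 (2.05, SE 0.87, limma adjusted p = 0.0918) and NCU08280 (1.85, SE 1.28, adjusted p = 0.292) were not called, but both were with the shallow Avicel replicate 1 and sucrose replicate 1 out of the fit (adjusted p = 0.000358 and 0.0424). The differences of fpp (0.19, adjusted p = 0.343) and NCU01119 (-0.12, adjusted p = 0.643) were small. The same no carbon libraries serve as control for pectin, where the matching values were 3.37 for erg-1, 2.40 for NCU03922 and 1.04 for NCU05278.

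Against sucrose, erg-4 and NCU02624 were the chosen genes with both orange peel powder libraries above all 3 sucrose libraries. The log2 differences of the chosen genes, not tested, were 1.95 for erg-4, 1.34 for NCU02624, 0.25 for NCU06402, 0.10 for erg-3 and -0.62 for NCU00712. Those of NCU06402 and erg-3 changed sign when sucrose replicate 3 (-0.04 for NCU06402) or sucrose replicate 1 (-0.01 for erg-3) was left out. Of the 10 further genes 0 were called higher, where 25.4% of all genes tested were, and 2 were called lower, where 14.8% were. They were erg-1, with 2104 ± 178 FPKM on orange peel powder (SD, n = 2) and 4554 ± 347 FPKM on sucrose (SD, n = 3), at -1.11 (SE 0.41, limma adjusted p = 0.0371), and NCU06054 at -1.06 (SE 0.20, adjusted p = 0.000830).

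Both calls were lost in fits with 1 library left out and under other scalings. The call of erg-1 was lost with any of the 5 libraries of the comparison left out, at log2 differences of -1.20 to -1.03. Its limma adjusted p was 0.0748, 0.0651 and 0.0651 without sucrose replicate 1, 2 and 3. The call of NCU06054 was lost without sucrose replicate 2 (-0.93). Both were lost under upper-quartile scaling and under quantile normalization, while the median difference of all genes tested moved from 0.21 to 0.42 and -0.18, and the share of calls that were higher from 63.3% to 71.7% and 44.9%. NCU03922, at -0.99 (adjusted p = 0.00224), was called without orange peel powder replicate 1 (-1.07, adjusted p = 0.0126) or sucrose replicate 3 (-1.04, adjusted p = 0.00510). NCU05278, with 1653 and 1425 FPKM on orange peel powder and 1204, 1083 and 1235 FPKM on sucrose, did not overlap but was not called (0.39, adjusted p = 0.254).

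Replicates of 4 sterol genes deviated in the same way, a pattern noticed after the values had been seen. In NCU02624, NCU06402, NCU08280 and NCU06207, orange peel powder replicate 2 was above replicate 1, pectin replicate 1 was the lowest pectin library, and Avicel replicate 1, no carbon replicate 2 and sucrose replicate 1 were the highest of their groups. Of the 8700 genes tested, 265 (3.05%) had this order, among them 4 of the 15 sterol genes. Parts of the order were also seen elsewhere on the list. All of it but the orange peel powder part held in erg-1, and the Avicel, no carbon and sucrose parts held in erg-4. NCU08280 ran widest, with 573 and 942 FPKM on orange peel powder, 312, 886 and 1174 FPKM on pectin, 2697, 85.1 and 87.8 FPKM on Avicel, 96.1, 538 and 161 FPKM without carbon, and 1388, 437 and 522 FPKM on sucrose. The highest Avicel library was 31.7 times the lowest in NCU08280, 12.1 times in NCU06207, 7.06 times in NCU02624 and 6.91 times in NCU06402, but 2.85 times in erg-1 and 1.61 times in erg-4. Avicel replicate 1, a shallow library, was more than 2 times each of the other Avicel libraries in 9.83% of genes tested, and the part of depth in this was not tested.

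**Figure D5:**
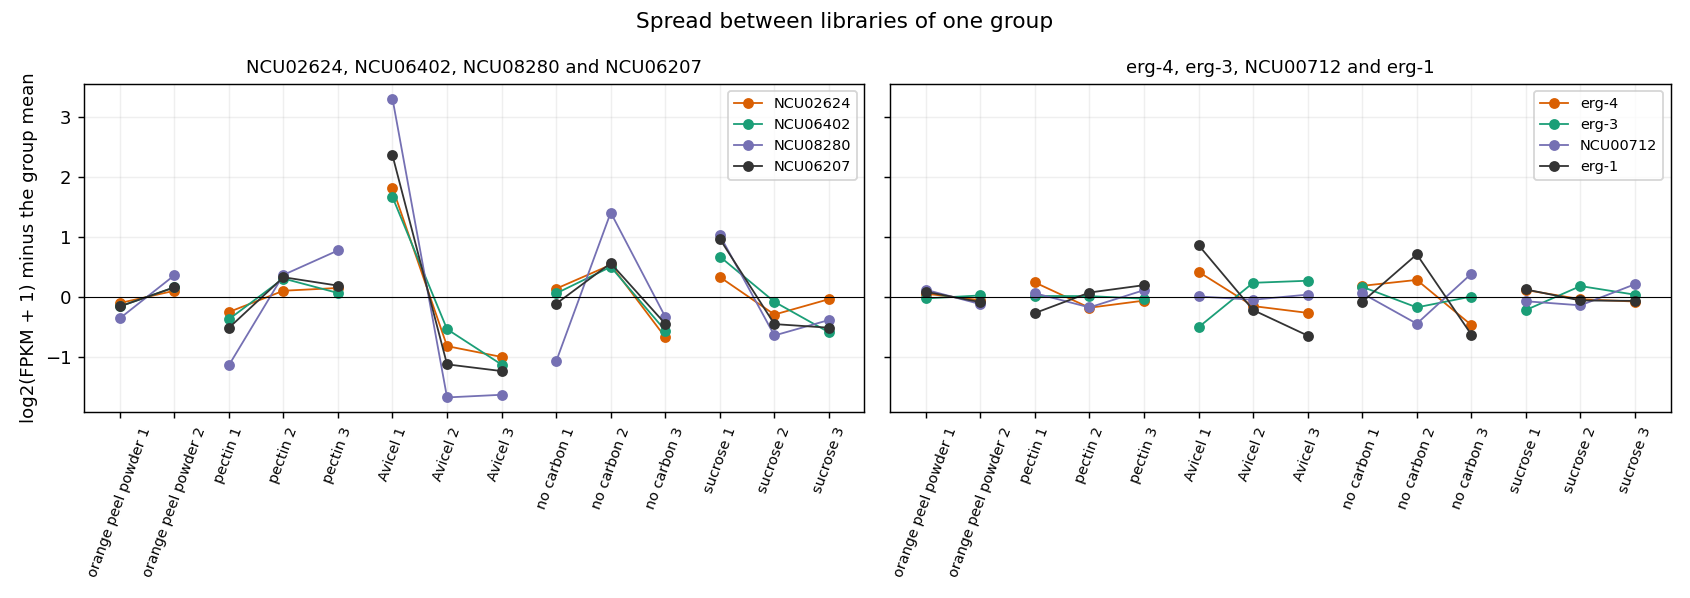
Deviation of log2(FPKM + 1) from the group mean in each library of the replicated groups; the left panel holds NCU02624, NCU06402, NCU08280 and NCU06207, the right panel erg-4, erg-3, NCU00712 and erg-1, and lines join the libraries of a group, which have no order. In the left panel the 4 lines are at their highest in Avicel replicate 1 within the Avicel group, where NCU08280 reached 2697 FPKM, and in the right panel erg-3 is at its lowest there, at 568 FPKM.

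A regulator of sterol genes was read in the same fits. For sah-2, which encodes the Neurospora counterpart of the sterol regulatory element binding protein, a membrane-bound regulator of sterol genes, the mean was 509 FPKM on orange peel powder, 394 on pectin, 218 on xylan, 505 on Avicel, 303 without carbon and 439 on sucrose. The orange peel powder libraries had 499 and 519 FPKM, against 314 to 435 FPKM on pectin and 268 to 365 FPKM without carbon. The spread was wide on Avicel (334 to 822 FPKM, median 358) and on sucrose (270 to 756 FPKM, median 291). By limma sah-2 was not called in any of the 6 comparisons (adjusted p = 0.212 to 0.913, with 0 of the 6 at an unadjusted p below 0.05). The gene sah-1 was on the same short list by its name, with nothing in the sources used here that ties it to sterols, and was lower on orange peel powder than without carbon (log2 difference -3.08) and on pectin than without carbon (-2.98), and higher without carbon than on sucrose (2.89, limma adjusted p = 1.36e-06, 3.88e-07 and 6.54e-08).

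The fatty acid synthase genes cel-1 and cel-2, which draw on acetyl-CoA as the sterol pathway does, had means of 397 and 370.0 FPKM on orange peel powder, 55.3 and 95.1 FPKM without carbon and 2193 and 1848 FPKM on sucrose. Both rose on orange peel powder against no carbon, by 3.11 and 2.18 (limma adjusted p = 0.000879 and 0.00529), and on pectin against no carbon by 2.95 and 2.04 (adjusted p = 0.000456 and 0.00333). They were lower on orange peel powder than on sucrose, at -2.46 and -2.32 (adjusted p = 0.00141 and 0.00154). Between orange peel powder and pectin they differed by 0.16 and 0.14 and were not called (adjusted p = 0.981 and 0.982).

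The likeness of whole profiles was measured as the root mean square difference of log2 condition means after each gene's own mean was removed, over the 6 conditions and 7752 genes with at least 10 FPKM. The orange peel powder means enter this measure, so the ranks given here are a description. The gene most like erg-4 was NCU02624 (0.39), and erg-4 was in turn the gene most like NCU02624. NCU04108 (0.56), chit-1 (0.70), NCU05788 (0.75) and cut-1 (0.80) followed, none of them on the sterol list. Of the other sterol genes NCU06402 ranked 19, erg-1 21, NCU03922 29 and NCU05278 31 by likeness to erg-4, while NCU00712 ranked 385 and erg-3 1227. NCU04108 had means of 2470 FPKM on orange peel powder, 491 on pectin, 176 on xylan, 64.5 on Avicel, 59.9 without carbon and 309 on sucrose.

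A grouping by the authors also divided the set. It is given beside pooled FPKM, which differed from the library values in some groups. On sucrose erg-1 had 3396.5 FPKM pooled, against 4344 to 4954 FPKM in single libraries. In the authors' deposited table of pooled FPKM, with 8664 rows, erg-4 and NCU02624 were placed in cluster 10 (555 rows). The authors' deposited table placed both NCU06402 transcripts, erg-3, NCU05278 and NCU04983 in cluster 11 (221 rows), and NCU00712, erg-1, fpp, NCU03922, NCU06054 and NCU01119 in cluster 15 (2742 rows). NCU08280, NCU06207 and NCU01333 stood in clusters 12, 3 and 8 of the authors' deposited table. These clusters were made from the libraries described above and are not an independent measurement.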

How the data were processed

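Poly(A) RNA of 15 mycelial libraries had been sequenced. Cuffdiff, Cufflinks 0.9.3 and TopHat 1.2.0 are listed, without roles, in the submitters' processing notes. No build is named there. The authors deposited 1 table of FPKM values per library, with confidence bounds, and a table of pooled FPKM by carbon source. The 9 tables of the earlier source also hold a coverage signal, per the file headers, whose ratio to FPKM gave the depth.

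Gene-level tables (orange peel powder, pectin, xylan) and transcript-level tables (Avicel, no carbon, sucrose) were joined by coordinates into 9733 loci, 863 of which carried different identifiers, with FPKM summed over transcripts at 164 loci. Positions count from 1. RefSeq's table for assembly NC12 held 9215 of the identifiers and gave 1113 of them a symbol. Reads shared by near-identical paralogs could not be traced.

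The 14 libraries of replicated groups entered 1 model on log2(FPKM + 1) in limma 3.58.1 (R 4.3.3), its variance moderated along a trend (residual degrees of freedom 9, prior 2.94), for the 8700 genes whose mean reached 1 FPKM. Tests were two-sided with Benjamini-Hochberg adjustment, in 6 comparisons. This scale understates changes of low genes. The xylan library was not tested. The code was tested on simulated data.

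Named were all 5 chosen genes, then up to 8 called sterol genes per comparison by size, and up to 4 not called. The members and all lists were chosen with earlier results of these data known. As alternatives, the pseudocount was set to 0.1 or 5, the filter dropped or raised to 5 FPKM, values scaled by upper quartile or quantiles, the trend left out, moderation made robust, and the fit made with the 2 groups alone, a replicate block, each replicate left out, Avicel replicate 1 and sucrose replicate 1 left out together, and a join by identifier.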

Additional observations from a re-analysis of the deposited data

How the results depend on the processing

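Precision is limited by the 2 libraries on orange peel powder, the single xylan library and the shallow first replicates of Avicel and sucrose. The number of tested sterol genes called kept within 1.5 times its value under the alternatives run, except as follows. Orange peel powder against pectin gave 0, and 1 with only those 2 groups in the fit. Orange peel powder against sucrose gave 2, and 0 under upper-quartile scaling and 0 under quantile normalization, with 0 to 2 when 1 replicate was left out. Pectin against no carbon gave 10, and 6 to 8 with 1 replicate left out, and 11 without Avicel replicate 1 and sucrose replicate 1. Avicel against no carbon gave 1, and 2 under upper-quartile scaling and 2 under quantile normalization, with 1 to 2 when 1 replicate was left out. Among genes not tested, the signs that reversed were those of NCU06402 on orange peel powder against sucrose, -0.023 with the replicate block and -0.042 without sucrose replicate 3 (up to 0.59 without Avicel replicate 1 and sucrose replicate 1), and of erg-3 there, -0.0098 without sucrose replicate 1, alone or with Avicel replicate 1 (up to 0.19 without sucrose replicate 2). Among tested genes, every sign that reversed belonged to a difference called neither with nor without the change of setting. On orange peel powder against pectin these were fpp (0.048 under quantile normalization), NCU08280 (-0.10 with the replicate block) and 2 ranges with 1 replicate left out, -0.473 to 0.48 for NCU08280 and -0.17 to 0.041 for NCU06054. On orange peel powder against no carbon it was fpp (-0.020 under quantile normalization). Against sucrose it was NCU08280, at -0.089 with the replicate block and -0.25 to 0.62 with replicates left out. On pectin against no carbon they were fpp (-0.069 under quantile normalization) and NCU01119 (-0.084 to 0.18 with 1 replicate left out). On Avicel against no carbon, leaving out replicates gave -0.21 to 1.19 for NCU02624, -0.016 to 1.38 for NCU06402, -0.277 to 0.14 for NCU00712 and -1.22 to 1.26 for NCU08280, the lowest of NCU02624, NCU06402 and NCU08280 being those without Avicel replicate 1. The causes were not tested. Over all genes, orange peel powder against pectin gave 27 calls, 15 with the replicate block, 160 with only those 2 groups, 161 without Avicel replicate 1 and sucrose replicate 1, and 4 to 18 with 1 replicate left out. Orange peel powder against no carbon gave 1838 calls and 807 without orange peel powder replicate 1, and Avicel against no carbon 554 and 332 with the 2 groups alone.

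Replicate numbers were not taken to pair the samples. Deviations of same-numbered libraries correlated at 0.107 and 0.213 between orange peel powder and pectin (2 pairs, too few for the rule used, which needs 3), at 0.132 and 0.013 between orange peel powder and no carbon, -0.183 and -0.094 between orange peel powder and sucrose, -0.159 to 0.107 between pectin and no carbon, -0.313 to 0.451 between Avicel and no carbon and -0.116 to -0.02 between no carbon and sucrose, and in the last 3 comparisons 2 of 6, 2 of 6 and 0 of 6 libraries correlated best with their own number. With the replicate block the sterol calls numbered 0, 6 and 3 for orange peel powder against pectin, no carbon and sucrose, 10 for pectin and 1 for Avicel against no carbon, and 10 for no carbon against sucrose.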

Other observations

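Beyond the sterol list, the genes whose condition profile was closest to that of erg-4 were also highest on orange peel powder, with the exception of cut-1. The likeness used the orange peel powder means, so a high level there was part of how these genes were picked. The gene chit-1 had a mean of 1667 FPKM on orange peel powder, 481 on pectin, 478 on xylan, 76.3 on Avicel, 37.1 without carbon and 581 on sucrose. NCU05788 had 232 FPKM on orange peel powder, 82.2 on pectin, 23.7 on xylan, 13.6 on Avicel, 5.73 without carbon and 30.8 on sucrose. For cut-1 the mean was 591 FPKM on orange peel powder, 203 on pectin, 131 on xylan, 194 on Avicel, 161 without carbon and 650.0 on sucrose. The profile closest to NCU06402 was that of another sterol list gene, NCU08280 (0.23), while those closest to erg-3 and NCU00712 were NCU06648 (0.080) and NCU07058 (0.15), neither on the list. The Avicel means of NCU06402 and NCU08280 leaned on the shallow Avicel replicate 1. It had 3297 FPKM for NCU06402, against 718 and 477 in the other Avicel libraries, and 2697 FPKM for NCU08280, against 85.1 and 87.8. All these likenesses are descriptions over 6 condition means, of which 1 is a single library.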
